A study of Mus musculus with 6 samples.

Results

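The genes described are the ABC transporters, proteins that use ATP to move bile salts, lipids, drugs, haem or peptides across membranes. They were chosen by mouse gene symbol in subfamilies A to G, through the RefSeq accession of each probe, and 46 such genes with a probe on the array are covered here, of 19752 genes with a symbol. The brightest probe stood for a gene. Of the 46, 40 were above background and tested, among 22863 genes tested in all. The 46 genes fall into subfamily A (15 genes), B (9), C (10), D (2), E (1), F (3) and G (6). Total liver RNA was measured on 6 Agilent arrays in 2 colours. Fra-1hep mice overexpress Fra-1 in hepatocytes only. Fra-1 is the product of Fosl1 and a member of the dimeric transcription factor AP-1. They were on the C57BL/6J strain and 26 to 28 weeks old. On 5 arrays RNA of a single Fra-1hep mouse in Cy5 was set against a pool of 5 chow-fed wild-type C57BL/6J mice of the same age in Cy3. The last array carried pooled Fra-1hep RNA in Cy3 against wild-type pool RNA in Cy5, the opposite dye orientation. The labels state no treatment, and the promoter that drives Fra-1, the sex of the animals and the mice in the Fra-1hep pool are not given in the sources used here. The series text speaks of 6 individual Fra-1hep animals. The sample labels, which were followed, name 5 plus 1 pool.

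Hepatocytes secrete bile through pumps of this superfamily in the canalicular membrane. The bile salt export pump (Abcb11), the phosphatidylcholine floppase (Abcb4), the conjugate pump (Abcc2), the sterol pair Abcg5 and Abcg8, and the drug pumps Abcb1a, Abcb1b and Abcg2 lie there, while Abcc3, Abcc4 and Abcc6 lie in the basolateral membrane and send substrates to blood. Other members load cholesterol and phospholipid onto lipoproteins or work inside mitochondria, peroxisomes and lysosomes, and the E and F subfamilies have no membrane domain and act on ribosomes.

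The arrays of mice 2 and 3 stood apart from the others by their likeness. Their values differed by 1.13 times the spread between replicate spots of a probe, against 1.96 to 2.44 times for the 9 other pairs of mice, so they were averaged and counted as 1 sample, leaving n = 4 Fra-1hep samples. The wild-type pool is 1 sample, its own spread between mice is not measured, and nothing says whether the mice came from separate litters. Between 48.6 and 59.0% of 55681 probes per array gave a Fra-1hep signal well above background and 45.05 to 50.8% a wild-type signal. The number of arrays limits the precision. The only Fosl1 probe was well above background on 0 arrays in either channel, so it does not check the labels. The 8 hepatocyte markers, such as Alb and Ttr, were detected above background by every array in Fra-1hep and in wild-type RNA.

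Of the 40 ABC genes tested, 6 were higher and 7 were lower in Fra-1hep liver, and 27 did not pass (limma, adjusted p under 0.05 over all genes). Among all genes tested 12.5% changed, 5.96% higher and 6.5% lower, and among tested genes with a symbol 15.9%. The median log2 ratio of the ABC genes was 0.0012, against 0.0090 for all genes tested, and the changes were moderate, from -0.73 to 0.78. Only 3 of the 40 passed with a change of at least 1.5-fold, Abca5 and Abcb1b upwards and Abcb11 downwards, against 3.53% of all genes. Among the changed genes, Abcc12 entered the test through its Fra-1hep signal alone and Abcd2 through its wild-type signal alone, so the filter favoured a difference in these 2 genes. Of the 36 ABC genes that every array detected in Fra-1hep and in wild-type RNA, which leaves both out, 5 were higher and 6 lower, and 14.1% of all genes so filtered changed. When ratios were centred on the median and not by loess, 8 ABC genes were higher and 5 lower, and of all genes 2466 were higher and 833 lower, against 1363 and 1487. With the processed signals of the scanner software, Abcb6, Abcc3, Abcc9, Abcc12, Abcd2, Abcg1 and Abcg8 kept their direction but did not pass, with adjusted p from 0.056 to 0.117. Direction was the same on all 6 arrays for all 13 changed ABC genes, and for 2647 of the 2850 changed genes among all tested. The calls were made on these same arrays, so like signs are no separate support. Because liver tissue was measured in bulk, fewer cells of a type and less RNA per cell cannot be told apart in any of these values.

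**Figure D1:**
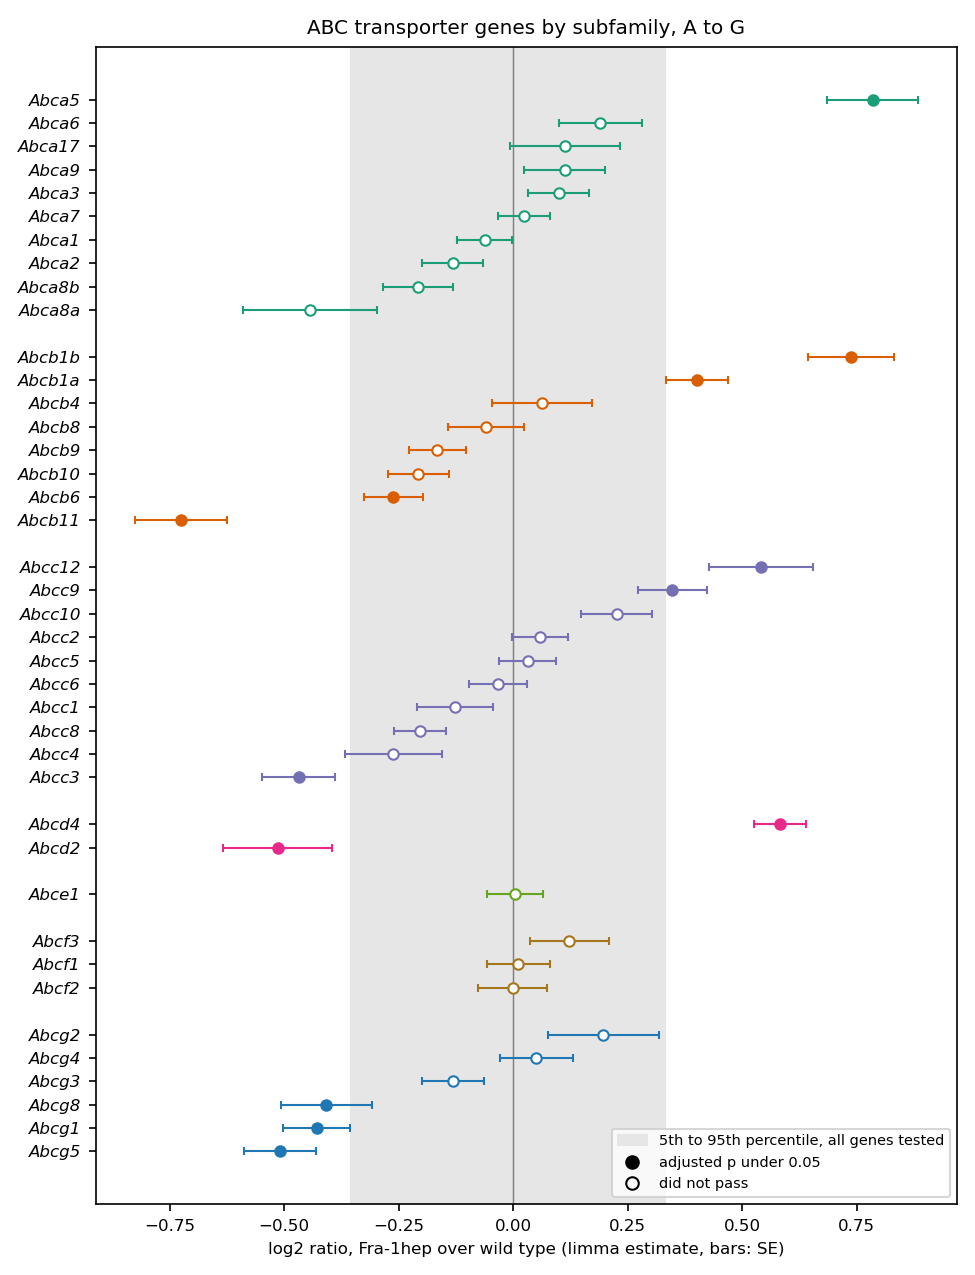
Log2 ratio of Fra-1hep over wild type for the 40 tested ABC genes, by subfamily A to G from top to bottom (limma estimate, bars SE; filled points passed an adjusted p under 0.05, open points did not). The grey band spans the 5th to 95th percentile of all genes tested (-0.35 to 0.33). Abca5 and Abcb1b lie furthest to the right and Abcb11 furthest to the left.

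Canalicular pumps moved in both directions. Of 8 measured, 2 rose (Abcb1a and Abcb1b), 3 fell (Abcb11, Abcg5 and Abcg8) and 3 did not pass (Abcb4, Abcc2 and Abcg2). Among all genes tested 5.96% rose and 6.5% fell. Abcb11 (NM_021022), whose product is the main pump for bile salts into bile, had log2 ratios of -0.72, -1.12, -1.11, -0.94 and -0.57 in Fra-1hep mice 1 to 5 and -0.62 in the Fra-1hep pool, each against the wild-type pool. It was lower on every array, least in mouse 5. The fitted value was -0.73 (SE 0.10, adjusted p = 0.00412), a level 1.65-fold lower in Fra-1hep liver.

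Abcb4 (NM_008830), which flops phosphatidylcholine into bile and so shields the ducts from bile salts, had log2 ratios of 0.31, -0.05, 0.01, 0.09 and -0.34 in the 5 mice and 0.11 in the pool. Mouse 1 was above and mouse 5 below the wild-type pool. The fitted value of 0.06 did not pass (adjusted p = 0.771), with a 95% interval from -0.19 to 0.32. Abcc2 (NM_013806), the pump for bilirubin glucuronides and other conjugates, varied little, with 0.21, 0.13, -0.05, 0.13 and 0.04 in the mice and 0.01 in the pool. Its fitted value was 0.06 (adjusted p = 0.599, 95% interval -0.08 to 0.20). Abcg2 (NM_011920), a pump for urate, sulfated conjugates and many drugs, was at 0.58 in mouse 1 and between -0.16 and 0.04 in the other mice, with 0.26 in the pool. Its SD over the 4 counted samples (0.31) was the widest of the canalicular pumps, and it did not pass (0.20, adjusted p = 0.356, 95% interval -0.09 to 0.48).

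**Figure D2:**
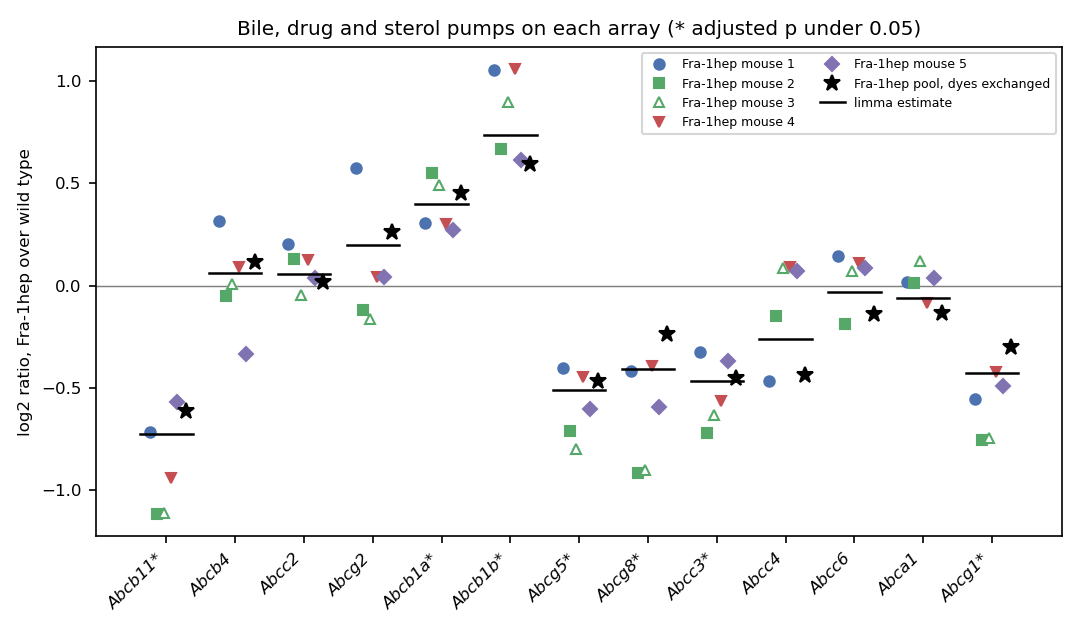
Log2 ratio of Fra-1hep over wild type on each of the 6 arrays for 8 canalicular pumps, 3 basolateral pumps and the sterol exporters Abca1 and Abcg1. Coloured symbols are the 5 Fra-1hep mice, the star is the Fra-1hep pool with dyes exchanged and the line is the limma estimate. All 6 points lie below 0 for Abcb11, Abcg5, Abcg8, Abcc3 and Abcg1 and above 0 for Abcb1a and Abcb1b.

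The gene pair for mouse P-glycoprotein, a broad pump for hydrophobic drugs, rose. Abcb1b (NM_011075) had log2 ratios of 1.05, 0.67, 0.90, 1.06 and 0.62 in the mice and 0.60 in the pool. Every array was above 0. The fitted rise was 1.67-fold (log2 0.74, SE 0.09, adjusted p = 0.0029). Abcb1a (NM_011076), the neighbouring gene on chromosome 5, had smaller ratios of 0.31, 0.55, 0.49, 0.30 and 0.27 in the mice and 0.45 in the pool. Mice 2 and 3 were the highest. It was 1.32-fold higher (log2 0.40, SE 0.07, adjusted p = 0.00944). These are close paralogs with 1 probe each, and signal shared between the probes was not measured. Their chromosomal neighbour Abcb4 did not pass, as given above.

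The promoters of these pumps are shown because their genes changed, in both directions, and the sequences serve to compare them. Each is printed 5′ to 3′ in the gene's direction from RefSeq (build GRCm38.p6), from 250 bases before to 50 after the start. Abcb11 is on the minus strand (chr2:69342567-69342866), Abcb1a (chr5:8566841-8567140) and Abcb1b (chr5:8797897-8798196) on the plus strand. Capitals mark matches, on either strand, to the AP-1 motif TGANTCA, the NF-Y box CCAAT, the antioxidant response element core TGACNNNGC or the nuclear receptor half-site AGGTCA.
Abcb11: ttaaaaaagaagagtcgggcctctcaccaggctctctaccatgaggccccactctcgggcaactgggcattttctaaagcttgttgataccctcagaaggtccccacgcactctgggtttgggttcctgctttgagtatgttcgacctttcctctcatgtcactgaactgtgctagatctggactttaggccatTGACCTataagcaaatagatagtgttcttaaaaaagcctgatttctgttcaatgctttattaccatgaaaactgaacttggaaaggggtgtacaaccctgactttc
Abcb1a: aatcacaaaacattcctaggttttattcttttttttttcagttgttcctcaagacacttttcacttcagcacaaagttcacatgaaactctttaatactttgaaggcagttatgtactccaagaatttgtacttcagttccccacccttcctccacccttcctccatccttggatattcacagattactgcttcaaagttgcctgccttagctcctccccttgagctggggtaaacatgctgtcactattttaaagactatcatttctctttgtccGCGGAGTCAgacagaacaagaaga
Abcb1b: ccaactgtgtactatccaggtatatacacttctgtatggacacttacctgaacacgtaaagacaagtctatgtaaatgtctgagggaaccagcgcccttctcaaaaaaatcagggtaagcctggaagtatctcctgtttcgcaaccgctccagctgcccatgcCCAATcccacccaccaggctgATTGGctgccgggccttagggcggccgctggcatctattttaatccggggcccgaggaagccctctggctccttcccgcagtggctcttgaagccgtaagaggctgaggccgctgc
Abcb11 holds 1 half-site, Abcb1a holds 1 antioxidant core and Abcb1b holds 2 NF-Y boxes. No pair of these windows shares a motif from the search. A match describes the letters only.

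The sterol half-transporters Abcg5 and Abcg8, which pair to export cholesterol and plant sterols into bile, fell together. Abcg5 (NM_031884) had log2 ratios of -0.40, -0.71, -0.80, -0.45 and -0.61 in the mice and -0.47 in the pool. The fitted value was -0.51 (SE 0.08, adjusted p = 0.00642), 1.42-fold lower in Fra-1hep liver. Abcg8 (NM_026180) had -0.42, -0.92, -0.90, -0.40 and -0.60 in the mice and -0.24 in the pool. In both genes mice 2 and 3 were the lowest, and no array was above 0. Abcg8 was 1.33-fold lower (log2 -0.41, SE 0.10, adjusted p = 0.0359). That call ended without mouse 5 (adjusted p = 0.0631), with slide as a fixed block (0.105) and with median centring (0.0653).

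Abcg5 and Abcg8 lie head to head on chromosome 17, and Abcg8 has 2 RefSeq starts, 1 of them 110 bases from that of Abcg5, so these windows share the stretch printed here from RefSeq (chr17:84682962-84683170, GRCm38.p6, plus strand, 209 bases). It runs in the direction of Abcg8, and capitals mark the 1 match among the same 4 motifs, an NF-Y box.
Abcg5 and Abcg8: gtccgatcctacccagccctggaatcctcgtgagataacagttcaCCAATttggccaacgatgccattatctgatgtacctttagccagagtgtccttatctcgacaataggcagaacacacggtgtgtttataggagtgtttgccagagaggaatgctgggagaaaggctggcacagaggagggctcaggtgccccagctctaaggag

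Among the basolateral pumps 1 of 3 changed, while 12.5% of all genes tested changed. Abcc3 (NM_029600), which returns glucuronides and bile salts to blood, had log2 ratios of -0.33, -0.72, -0.64, -0.57 and -0.37 in the mice and -0.45 in the pool. It was 1.38-fold lower (log2 -0.47, SE 0.08, adjusted p = 0.0096), and lower on every array. Abcc4 (NM_001033336), a pump for cyclic nucleotides and bile salts, was at -0.47 in mouse 1, -0.15 in mouse 2 and 0.07 to 0.09 in mice 3, 4 and 5, with -0.44 in the pool. The arrays overlap 0, and the fitted value of -0.26 did not pass (adjusted p = 0.167, 95% interval -0.51 to -0.01 before adjustment). Abcc6 (NM_018795), needed for the release of ATP from hepatocytes, ranged from -0.19 to 0.14 over the mice with -0.14 in the pool and did not pass (-0.03, adjusted p = 0.788). A further Abcc6 probe, dimmer than the first, was at -0.27 (adjusted p = 0.0308 in a fit over all probes), so its 2 probes disagree.

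The exporters of cellular sterol differed. Abcg1 (NM_009593), which passes cholesterol to lipoproteins from macrophages and other cells, had log2 ratios of -0.56, -0.75, -0.75, -0.42 and -0.49 in the mice and -0.30 in the pool. It was 1.35-fold lower (log2 -0.43, SE 0.07, adjusted p = 0.00995), with no array above 0. Of 8 macrophage markers tested, 6 fell, such as Clec4f (-0.61) and Csf1r (-0.46), and 0 rose, while 6.5% of all genes tested fell. Marco (-1.33, adjusted p = 0.0884) and Itgam (0.39, adjusted p = 0.137) did not pass, and Itgam was above 0 on every array. The summed normalised signal of the 8 was 28252 to 48212 in Fra-1hep channels and 56345 to 62768 in wild-type channels. All 8 were well above background on 6 of 6 arrays in Fra-1hep and wild type alike, and their part in the Abcg1 value was not tested. Abca1 (NM_013454), which starts the assembly of high-density lipoprotein on hepatocytes, had 0.02, 0.01, 0.12, -0.09 and 0.04 in the mice and -0.13 in the pool. These straddle 0, and its value did not pass (-0.06, adjusted p = 0.562, 95% interval -0.20 to 0.08).

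Of 10 A subfamily genes tested, 1 rose and 9 did not pass, near the 12.5% of all genes tested that changed. The one that rose was Abca5 (NM_147219), a lipid transporter of late endosomes and lysosomes, with log2 ratios of 0.55, 1.07, 1.08, 0.68 and 0.62 in the mice and 0.84 in the pool. Mice 2 and 3 were highest, and every array was above 0. The fitted rise was 1.72-fold (log2 0.78, SE 0.10, adjusted p = 0.00285), the largest among the ABC genes. A dimmer second probe of Abca5 gave 0.30 (adjusted p = 0.0168 in a fit over all probes), in the same direction but smaller. With this probe wild-type RNA was well above background on 2 of 6 arrays and Fra-1hep RNA on 6 of 6. The probe passed the filter through its Fra-1hep signal alone, so the filter favoured a rise.

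Abca5 lies on chromosome 11 in a run with Abca6, Abca9, Abca8a and Abca8b, and none of those neighbours passed. Their fitted values were 0.19 for Abca6, 0.11 for Abca9, -0.44 for Abca8a and -0.21 for Abca8b. Abca8a (NM_153145) was at 0.09 in mouse 1 and between -0.75 and -0.23 in the other mice, with -0.51 in the pool. Its SD of 0.39 was the widest of the tested ABC genes and its adjusted p was 0.0954, and without mouse 1 it fell by 0.52 (adjusted p = 0.0262). Of the other A genes, Abca2 (-0.13), Abca3 (0.10), Abca7 (0.02) and Abca17 (0.11) did not pass either. Abca2 and Abca3 are lipid transporters of lysosomal organelles and Abca7 is a phospholipid exporter.

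**Figure D3:**
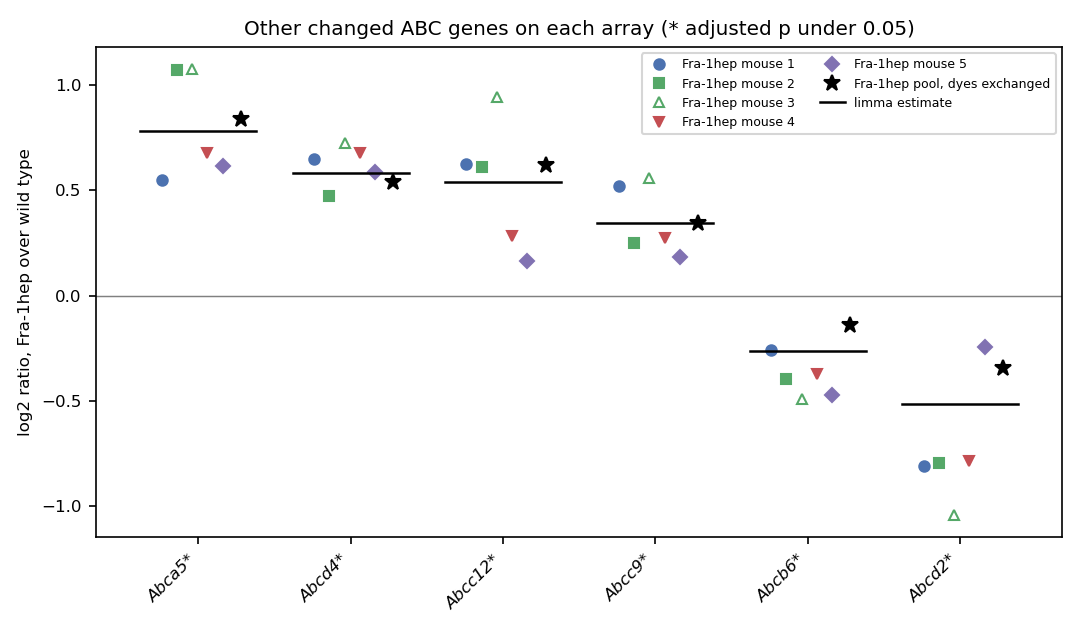
Log2 ratio of Fra-1hep over wild type on each of the 6 arrays for the 6 changed ABC genes other than the bile, drug and sterol pumps. Coloured symbols are the 5 Fra-1hep mice, the star is the Fra-1hep pool with dyes exchanged and the line is the limma estimate. The points of Abcd4 run over 0.47 to 0.73 in the mice, while those of Abcc12 and Abcd2 spread widely on 1 side of 0.

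Inside organelles, changes again went both ways. Abcd4 (NM_008992), a lysosomal protein needed to release vitamin B12 into the cytosol, had log2 ratios of 0.65, 0.47, 0.73, 0.68 and 0.59 in the mice and 0.54 in the pool. Mice 2 and 3, averaged as 1 sample, were its lowest and highest, so the SD of 0.04 over the 4 counted samples leaves out their difference. It had the smallest adjusted p among the ABC genes (log2 0.58, SE 0.06, adjusted p = 0.00103). Lmbrd1 and Mmachc, its partners in vitamin B12 handling, did not pass (-0.10 and 0.12). Abcb9, the lysosomal peptide transporter, was below 0 on all 6 arrays and did not pass either (-0.17, adjusted p = 0.135), while the mouse arrays alone gave -0.30 (adjusted p = 0.0075).

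The peroxisomal half-transporters carry fatty acyl-CoA in for oxidation. Abcd2 (NM_011994), which takes very-long-chain and polyunsaturated acyl-CoA, had -0.81, -0.79, -1.04, -0.78 and -0.24 in the mice and -0.34 in the pool. All arrays were below 0, mouse 5 the least among the mice. Its signal was dim: Fra-1hep RNA gave a signal well above background on 1 of 6 arrays, wild-type RNA on 6 of 6. The fitted log2 ratio of -0.51 (SE 0.12, adjusted p = 0.0305) rests on a Fra-1hep signal not well above background on most arrays, so its size is uncertain, and the call ended without mouse 1 (adjusted p = 0.0577) or mouse 4 (0.0563). With a normexp offset of 10 the value was -1.002 (adjusted p = 0.0533) and with the scanner software's processed signals -2.40 (adjusted p = 0.113).

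Abcb8 and Abcb10 lie in the mitochondrial inner membrane. Abcb8 (-0.06, adjusted p = 0.704) and Abcb10, which takes part in haem synthesis (-0.21, adjusted p = 0.0897), did not pass. Abcb6 (NM_023732), a porphyrin transporter, had -0.26, -0.39, -0.49, -0.37 and -0.47 in the mice and -0.14 in the pool. It was lower throughout (log2 -0.26, SE 0.06, adjusted p = 0.0361), but the call ended without mouse 4 (adjusted p = 0.0684) or mouse 5 (0.0617), and with median centring the value was -0.12 (adjusted p = 0.313).

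The remaining C subfamily genes include receptors as well as pumps. Abcc9 (NM_021041), the sulfonylurea receptor subunit of potassium channels in muscle and vessel walls, had 0.52, 0.25, 0.56, 0.27 and 0.18 in the mice and 0.35 in the pool. No array was below 0, and the fitted rise was 0.35 on the log2 scale (SE 0.08, adjusted p = 0.024). Of 6 stellate and mural cell markers tested, Pdgfrb was higher (0.32), Acta2 was lower (-0.84) and 4 did not pass, while 12.5% of all genes tested changed. The summed signal of these 6 markers was 3331 to 5333 in Fra-1hep channels and 5366 to 5591 in wild-type channels. Their part in the Abcc9 value was not tested. Abcc12 (NM_172912), a member with no settled substrate, had 0.62, 0.61, 0.94, 0.28 and 0.17 in the mice and 0.62 in the pool. Its wild-type signal was well above background on 0 of 6 arrays and its Fra-1hep signal on 6 of 6. The fitted log2 ratio was 0.54 (SE 0.11, adjusted p = 0.0216), a call favoured by the filter, which this gene passed through its Fra-1hep signal alone. Its measured means on the mouse arrays were 6.86 in Fra-1hep and 6.40 in wild type, as log2 signal, or 1.38-fold apart. That ratio is open to dye bias, and its size is uncertain because the wild-type signal was not well above background. The pump genes Abcc1 (-0.13), Abcc5 (0.03) and Abcc10 (0.23) and the sulfonylurea receptor gene Abcc8 (-0.20) did not pass, with adjusted p of at least 0.0595.

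The E and F genes, which act in ribosome recycling and translation control, did not pass, with fitted values of 0.00 for Abce1, 0.01 for Abcf1, -0.00 for Abcf2 and 0.12 for Abcf3. Their standard errors were 0.06 to 0.09 on the log2 scale. In the G subfamily, the rodent gene Abcg3 (-0.13) and Abcg4 (0.05), a sterol exporter of brain, also did not pass.

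**Figure D4:**
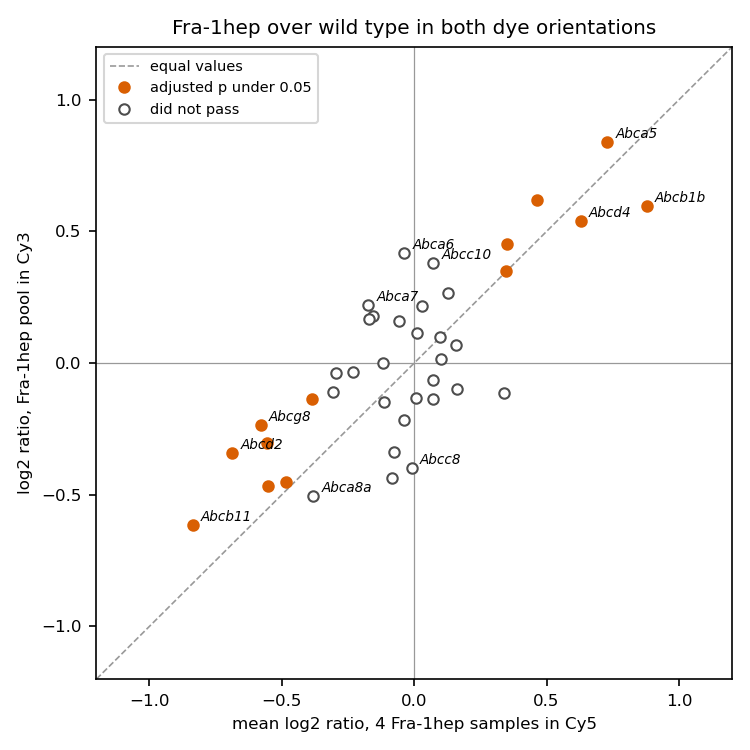
Each point is a tested ABC gene, with the mean log2 ratio of Fra-1hep over wild type over the 4 Fra-1hep samples in Cy5 on the horizontal axis and the ratio of the Fra-1hep pool in Cy3 on the vertical axis. Filled points passed an adjusted p under 0.05. All 13 filled points, called on these same arrays, have the same sign on both axes. Among the open points, Abca6, Abca7, Abcf1, Abcf2 and Abcg4 are below 0 on the horizontal axis and above 0 on the vertical one. Abca1, Abca17, Abcc5, Abcc6 and Abce1 are above 0 on the horizontal axis and below 0 on the vertical one.

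The dye orientation mattered for several genes, not only for those with small ratios on the mouse arrays. Abca17 was between 0.08 and 0.77 in the mice but -0.11 in the dye-swapped pool, with a dye term of 0.23. Abca7 was between -0.24 and -0.13 in all 5 mice but 0.22 in the dye-swapped pool, so its fitted value was 0.02 with a dye term of -0.20, while the mouse arrays alone gave -0.17 (adjusted p = 0.0396). Abcc8 was between -0.11 and 0.06 in the mice and -0.40 in the pool. Among the changed genes the dye term ran from -0.17 (Abcd2 and Abcg8) to 0.14 (Abcb1b). With slide as a fixed block, which compares the pools with mice 3 and 4 of the same slide, Abcb11 fell by 0.82 (adjusted p = 0.00566) and Abcb1b rose by 0.79 (0.00584), and Abcb6, Abcc9 and Abcg8 did not pass.

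Genes not tested were Abca4, Abca12, Abca13, Abca14, Abca15 and Abcb5, each well above background on 0 arrays in either channel with every probe it had. These are known mainly from retina, skin, testis or other tissues. Of the tested genes, 6 had more than 1 probe above background, giving 7 further probes, of which 4 had the sign of the brighter one. Abca5, the 1 changed gene among those 6, had a further probe of the same sign, which passed the filter through its Fra-1hep signal alone, as given above. The changed gene Abcc12 had 2 probes on the array, of which 1 passed the filter, so its value rests on 1 probe.

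The 4 promoter motifs were counted in 36 RefSeq promoter windows of 30 tested ABC genes. The AP-1 motif, the site bound by dimers that contain Fra-1, was in 0 of the 30 genes' windows. It was in 7.81% of all 32851 windows counted, which did not cover every chromosome. NF-Y boxes were in 12 of the 30 genes (40.0%), against 37.4% of all windows, and in 5 of the 9 changed genes with a window. Among these 5, Abcg5 and Abcg8 share the box printed above, which counts for both. The antioxidant core was in 5 of 30 genes (16.7%, 12.4% of all windows) and the nuclear receptor half-site in 5 of 30 (16.7%, 16.3% of all windows). A gene with several starts has several windows here. An ABC gene was counted if any of its windows matched, while the share of all windows counts each window. The shares are in unlike units, which can raise those of the ABC genes. Absence of the letters in these windows says nothing of other regions.

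Among 21 regulators of transporter genes, 1 rose, 2 fell and 18 did not pass, with a median log2 ratio of -0.01. The share changed was near the 12.5% of all genes tested, so the genes named here are single values and not a result about the list. The xenobiotic receptor gene Nr1i3, encoding CAR, fell (-0.65, SE 0.12, adjusted p = 0.0151), as did the aryl hydrocarbon receptor gene Ahr (-0.37, adjusted p = 0.0433), and the orphan receptor gene Esrra rose (0.32, adjusted p = 0.0141). The pregnane X receptor gene Nr1i2 was at -0.38 (adjusted p = 0.0532) and the liver X receptor gene Nr1h3 at -0.24 (0.0663), neither passing. Nr1h4, encoding the bile acid receptor FXR, was at -0.06 (adjusted p = 0.537), Nfe2l2, encoding NRF2, at -0.16 (0.114) and Ppara at -0.16 (0.286).

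Of 16 bile flow partners tested, 1 rose, 1 fell and 14 did not pass, again near the 12.5% of all genes tested. Cyp8b1, which sets the share of cholic acid, fell (-0.85, SE 0.17, adjusted p = 0.019), and Ezr, encoding a membrane-cytoskeleton linker found on bile duct cells, rose (0.39, adjusted p = 0.0306). Cyp7a1, the rate-limiting enzyme of bile acid synthesis, was at 0.20 (adjusted p = 0.298) and the canalicular flippase gene Atp8b1 at 0.05 (0.776). Of 9 bile salt and organic anion carriers tested, Slco1a1 fell (-2.73), Slc10a2, the sodium-dependent bile salt carrier of ileum and cholangiocytes, rose (0.92, adjusted p = 0.00404), and 7 did not pass. Beside the 12.5% of all genes tested, these are single values and not a result about the list. Slc22a7 did not pass (-1.09, SE 0.33, adjusted p = 0.0772) but was below 0 on every array, from -0.06 in mouse 1 to -2.31 in mouse 3. Slc10a1, the main carrier of bile salts into hepatocytes, was at 0.17 (adjusted p = 0.402), between 0.57 and 1.31 in the mice but -0.58 in the dye-swapped pool.

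Lipid transport partners changed in 3 of 14 cases, while 12.5% of all genes tested changed. Pltp, encoding phospholipid transfer protein (-1.01, adjusted p = 0.00361), and Apoa1, the acceptor protein of Abca1 (-0.34, adjusted p = 0.0261), fell, and Lipa, the lysosomal lipase gene, rose (0.28, adjusted p = 0.0405). Of 19 partners of organelle transporters, 1 rose, 4 fell and 14 did not pass. Both lists are small and were chosen by hand, so the genes named are single values and not a result about the lists. The peroxisome assembly genes Pex3 and Pex19 (both -0.31), the acyl-CoA synthetase gene Acsl1 (-0.62, adjusted p = 0.0126) and the mitochondrial iron carrier gene Slc25a37 (-0.41, adjusted p = 0.00828) fell, and the translation factor gene Eif2s1 rose (0.33, adjusted p = 0.0126). The ABC genes named otherwise, which the symbol rule leaves out, included the peptide transporter pair of antigen presentation, Tap1 (-0.49, SE 0.07, adjusted p = 0.00476) and Tap2 (-0.23, adjusted p = 0.0363), both lower, and Cftr, the chloride channel of bile ducts, which did not pass (0.02, adjusted p = 0.902).

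Marker levels of several other liver cell types also differed between the groups. Of all genes tested 5.96% were higher and 6.5% lower, which stands beside each count given here. Cholangiocyte markers rose in 2 of 7 cases (Spp1, 1.04, and Epcam, 0.41) and fell in 0, with a summed signal of 1610 to 1967 in Fra-1hep channels and 1215 to 1311 in wild-type channels, and Cftr, which marks duct cells, was detected in Fra-1hep RNA by 3 of 6 arrays and in wild-type RNA by 1 of 6. Endothelial markers fell in 5 of 8 cases and rose in 0, with a summed signal of 8858 to 14115 in Fra-1hep channels and 17811 to 19258 in wild-type channels. Neutrophil markers rose in 7 of 8 cases, with a summed signal of 37947 to 87785 in Fra-1hep channels and 24743 to 29932 in wild-type channels. Of 8 hepatocyte markers, 1 rose, 2 fell and 5 did not pass, with sums of 522742 to 661871 in Fra-1hep channels and 532360 to 705130 in wild-type channels. Lower values were also found for 3 of 5 markers of T and NK cells, 1 of 2 of B cells and 1 of 3 of red blood cells, with 0 rising, while platelet markers rose in 1 of 3 and fell in 0. The part of these cells in the ABC values was not tested.

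**Figure D5:**
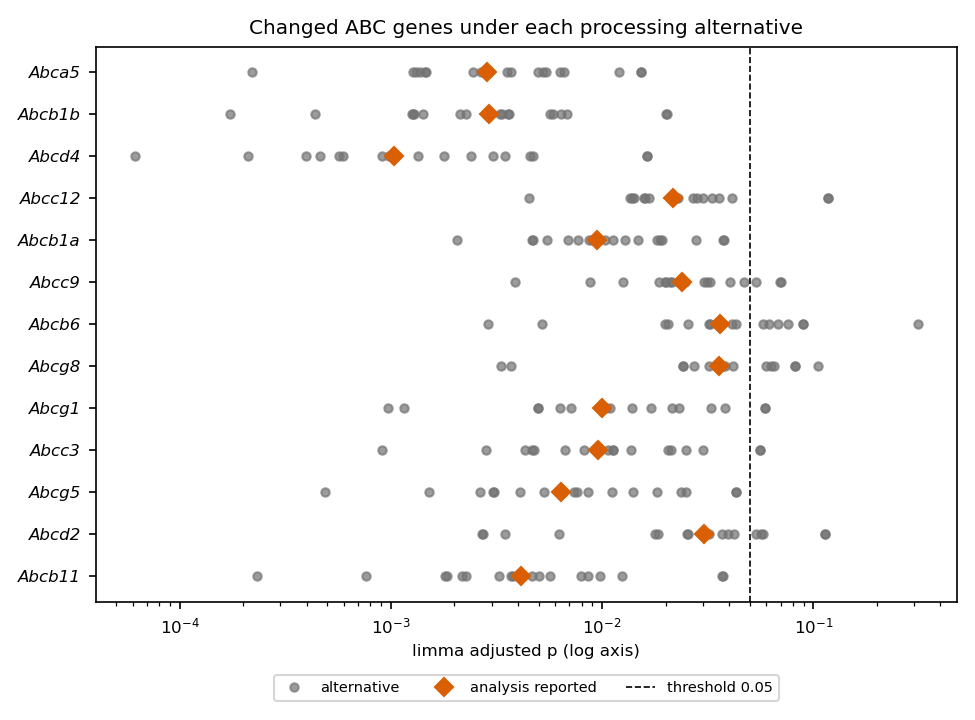
Adjusted p of limma (log axis) for the 13 changed ABC genes in the analysis reported (orange diamonds) and under each processing alternative (grey points), with the threshold of 0.05 as a dashed line. All points of Abca5, Abcb1b, Abcd4, Abcb1a, Abcg5 and Abcb11 lie left of the line, while the other 7 genes have points to its right.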

How the data were processed

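Per the labels, RNA with an integrity score above 7.8 was used and 100 ng was amplified and labelled. Images were read by the authors with the Agilent Feature Extraction software, version 10.7 per the submitters' processing notes and 10.7.3.1 by the headers. Deposited per array were the unnormalised median intensity of spot and background, the processed intensity (background-subtracted and dye-normalised, per the file headers) and its log10 ratio. The series table deposited by the authors gives the same ratio as log2, uncentred (column medians -0.18 to 0.06) and all turned to Fra-1hep over wild type, as a comparison with each array showed.

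From the median signals, background was corrected with normexp (offset 50) and ratios normalised by loess within arrays in limma 3.58.1 under R 4.3.3 (data.table, version 1.17.8), with control spots and outlier spots left out. No ABC gene lost a value to an outlier mark, and 0 spots were saturated. Of 55681 probes, 26056 had 1 symbol by RefSeq accession (GRCm38.p6 list, used for names and gene order). The brightest probe stood for a gene, and a gene was tested where that probe was detected in Fra-1hep RNA by at least 3 of 5 mouse arrays or in wild-type RNA by at least 3 of 6 arrays. The fit had a genotype and a dye term (3 residual and 4.66 prior degrees of freedom), with 2-sided tests and Benjamini-Hochberg adjustment. The dye-swapped array weighs as much as the mice together, and its own error is not estimated. SD and n refer to the 4 counted samples, and the 95% intervals are limma's, unadjusted. The fit was also run on simulated data in which the dye-swapped array had the noise of a mouse array, so that run does not check this array's error. In the data, pairs of this array with a mouse differed by 2.82 to 3.56 times the spread between replicate spots.

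Per-array values are given for members changed at least 1.5-fold, the canalicular and basolateral pumps and the sterol exporters, and also, after their values were seen, for the other changed members. The members and all gene lists were chosen with earlier results of these data known, and some genes are not reported here. Alternatives covered normalization, background, offset, filter, probe, dye, slide, variance model and replicates. Where a group was above background on 0 arrays, the bright mean was set against a floor, taken array by array as the dim probe's own signal or, if higher, the weakest detected signal. For Abcc12 the floor was its own signal, so its 1.38-fold value is the measured ratio of the mouse arrays.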

Additional observations from a re-analysis of the deposited data

Results flagged for a closer look

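Among the 40 ABC genes tested over the 4 counted Fra-1hep samples, 2 had a sample far from the others, at a gap near the level that chance gives in about 1 of 20 groups. Mouse 4 had the far value of Abca9, 0.45, with the remaining samples at 0.02 to 0.09. Abcb1a was at 0.52 in the average of mice 2 and 3, against 0.27 to 0.31 in the others, all above 0.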

How the results depend on the processing

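Of 18 alternatives, Abca5, Abcb1a, Abcb1b, Abcb11, Abcd4 and Abcg5 passed under all, and all 13 changed genes kept their direction under every alternative that could be computed. The other 7 lost the call at least once. Of the genes that did not pass, 7 gained a call at least once with their sign kept: Abca6 and Abcc10 with median centring, Abcc8 with mice 2 and 3 separate or slide as a random block, Abca8a and Abca8b with no dye term, Abca2 and Abcb9 with the mouse arrays alone, among 12 such values. Abca7 also passed with the mouse arrays alone, but with its sign changed. With the processed signals of the scanner software, and also with the authors' deposited series table, 4 ABC genes were higher and 2 lower, while the share of all genes changed was 6.72% and 6.76%. With a normexp offset of 10, 6 were higher and 4 lower, with 10.2% of all genes changed, and with the mouse arrays alone 6 were higher and 11 lower, with 26.7% of all genes changed. Leaving out each mouse in turn gave 6 higher and 5 to 7 lower ABC genes, and 2315 to 2721 changed genes in all, against 2850. The cause of these shifts was not tested. The replicate numbers exist in the Fra-1hep group alone: no paired analysis was possible because the wild-type pool is 1 sample.

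Signs changed for 10 genes that did not pass in the analysis reported, and of these values only that of Abca7 without the dye-swapped array passed. With median centring Abca1 was at 0.082, Abcb8 at 0.081, Abcc6 at 0.12 and Abcf2 at 0.13. With no dye term Abca7 was at -0.094, Abcc6 at 0.029, Abcf1 at -0.088 and Abcg4 at -0.015. Without the dye-swapped array Abca1 was at 0.0081, Abca6 at -0.038, Abca7 at -0.17, Abcc6 at 0.070, Abcf1 at -0.16 and Abcg4 at -0.058. Abcf2 was at 0.018 with mice 2 and 3 separate, 0.017 with slide as a random block and 0.051 with slide as a fixed block. With the mean of all probes Abcc5 was at -0.052 and Abcf1 at -0.060. Leaving out each mouse in turn gave -0.0063 to 0.020 for Abcf2 and -0.0038 to 0.020 for Abce1. Dim signal limits Abcd2 and Abcc12, whose sizes moved to -2.40 and 1.89 with processed signals.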
